A study of Bos taurus with 6 samples.

Results

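The genes described here are 33 genes of the mevalonate pathway, of its branches to sterols and to isoprenoid chains, and of the machinery that controls them, measured in the blood of cattle. Probes were chosen by their gene name on the array. All 33 names were found, on 74 of the 43653 probes besides controls. The 4 probes named STARD4 carry an accession that RefSeq lists as STARD5, so STARD4 itself may not be measured. They fall into 7 genes of the mevalonate steps, 11 of the sterol branch, 8 of the prenyl branch and 7 regulators. Each gene was read at its brightest probe, the probe with the highest mean signal over the 6 arrays, and its other probes are given beside it.

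The 3 female cows carrying the transgene fat-1 (3 years old, except replicate 1 at 3.5 years) were set against 3 wild type females (3 years old), with 1 array of whole jugular blood for each animal. The gene fat-1 comes from the nematode Caenorhabditis elegans and makes an enzyme, lacking in mammals, that converts omega-6 to omega-3 fatty acids. The labels do not say which promoter drives it or how many founder lines the animals come from. No probe is annotated to the transgene, so the genotype could not be checked at its transcript.

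In the mevalonate pathway, acetyl units are joined and reduced to mevalonate and then turned into isoprene units, which are condensed to farnesyl diphosphate. From there the sterol branch leads through squalene and lanosterol to cholesterol, while the prenyl branch makes the longer chains that anchor small GTPases to membranes and form dolichol and ubiquinone. In mammals the transcription factor encoded by SREBF2 drives most of these genes when sterols are low: SCAP escorts it out of the endoplasmic reticulum, INSIG1 and INSIG2 hold it back, and the proteases encoded by MBTPS1 and MBTPS2 release its active part.

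The results turn on a few probes, each 60 bases long. The first 30 bases are printed 5′ to 3′, with positions on the build Btau_3.1 as in the deposited files. MSMO1 is shown because its 4 probes, which share no base, gave nearly the same difference. They lie on the minus strand, at chr17:493483-493542 for probe 1 (the brightest), chr17:494142-494201 for probe 2, chr17:494331-494390 for probe 3 and chr17:494247-494306 for probe 4.
MSMO1 probe 1: tcattgtacttaaagcagtgtcctgaaact
MSMO1 probe 2: atatgcatttcctgaattgaagctagtagc
MSMO1 probe 3: tcattcctttctatgctggttctcggcatc
MSMO1 probe 4: gggacagaatttttggaacagactctcaat

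GGPS1 is shown for the opposite reason, since its 2 brightest probes share 55 bases and so measure the same stretch of transcript. They lie on the plus strand at chr28:6559894-6559953 and chr28:6559899-6559957, and capitals mark the shared bases among those printed.
GGPS1 probe 1: tggccAACTCTGCCTCACATGTTCTGTGGA
GGPS1 probe 2: AACTCTGCCTCACATGTTCTGTGGATTCTG

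SREBF2 is shown because its probes disagreed. All 4 lie on the plus strand, at chr5:120041454-120041513 (probe 1, the brightest), chr5:120042349-120042408 (probe 2), chr5:120015413-120015472 (probe 3) and chr5:120033265-120033324 (probe 4). Probe 1 holds 66.7% G and C, against 38.3% in probe 2 and 45.0% in probes 3 and 4.
SREBF2 probe 1: tgcccacatcagccgccgcctccctccatt
SREBF2 probe 2: gggggcaggcttggggatgggtgaaatcgt
SREBF2 probe 3: acaatgacgtggacttgaagatcgatgact
SREBF2 probe 4: ttctccagcgctcttgagtacctgaaatta

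HMGCS1 rests on a single probe, at chr20:33482077-33482136 on the plus strand. Its last 30 bases are printed, with the letters of a polyadenylation signal, AATAAA, in capitals. Searched on the probe strand only, these letters occur in 8 of the 74 probes of these genes (10.8%) and in 9.35% of all probes.
HMGCS1 probe: gtgggtaactttgAATAAAgttttagagaa

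A level below is the log2 processed intensity minus the 75th percentile of the animal's array, and a difference is the mean of fat-1 animals minus that of wild type animals, n = 3 each, with the standard error (SE) of the limma fit. That percentile was 714, 745 and 1065 intensity units in fat-1 animals, against 742, 611 and 886 in wild type animals. Arrays correlated at 0.970 to 0.985 over probes. The fat-1 arrays shared 1 slide and scan and the wild type arrays another, so slide and genotype cannot be told apart in any value here. In whole blood, fewer cells of a type and less RNA per cell cannot be told apart either.

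No member passed an adjusted p of 0.05 (limma, Benjamini-Hochberg over all 26811 probes tested), and the lowest adjusted p was 0.214. Among the 10756 genes tested, 0.167% passed. At an unadjusted p under 0.05, 5 of the 33 members (15.2%) stood higher in fat-1 blood, where 5.56% of all genes did. These were HMGCS1, FDFT1, CYP51A1, MSMO1 and GGPS1. A single member (3.03%), SREBF2, stood lower, against 6.41% of all genes. Every fat-1 animal lay above every wild type animal in 7 members (21.2%), the 5 above with IDI1 and SQLE, against 7.22% of all genes. Every fat-1 animal lay below in SREBF2 and MBTPS1 (6.06%), against 13.3% of all genes. In all, 20 members had a difference above 0 (60.6%, against 42.0% of genes), and the median difference was 0.10, against -0.08 over all genes. All 33 brightest probes were well above background on all 6 arrays.

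**Figure D1:**
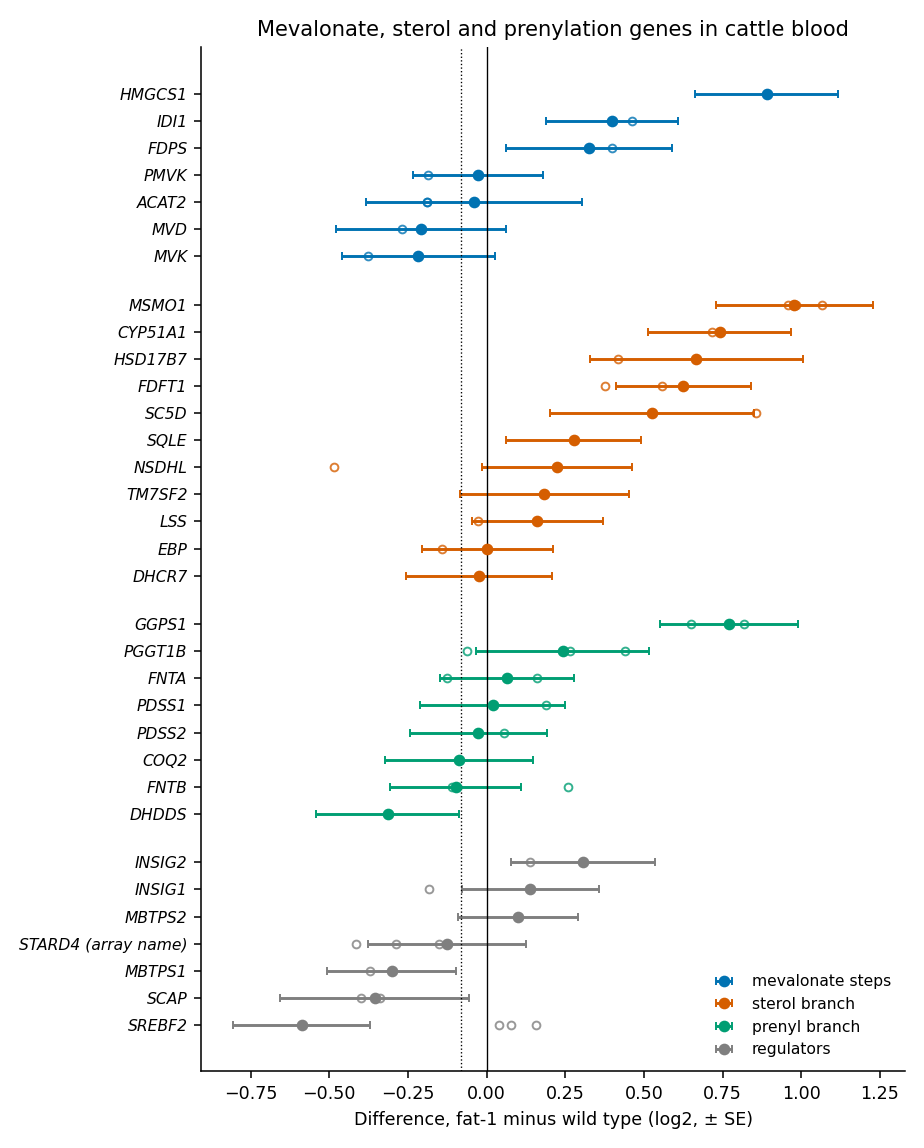
Difference in level (log2, fat-1 minus wild type) of each of the 33 genes, grouped by role, with filled points for the brightest probe, bars for its SE and open points for other tested probes; the dotted line is the median over all genes, -0.08. Of 11 sterol genes 10 lie above 0 at the brightest probe (90.9%, against 42.0% of all genes), and the open points of SREBF2 and NSDHL lie across 0 from the filled ones.

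The mevalonate steps were uneven. Of the 7 genes, 3 had a difference above 0, the median was -0.03, and only HMGCS1 had an unadjusted p under 0.05. HMGCS1, the synthase that joins acetoacetyl-CoA and acetyl-CoA, had levels of 0.59, 0.59 and 0.71 in fat-1 animals, against -0.26, -0.58 and 0.04 in wild type animals. The fat-1 animals lay close together and all above the highest wild type animal. The difference was 0.89 ± 0.23 (SE; 1.85-fold, 95% interval 0.37 to 1.41), with an unadjusted p of 0.00401 and an adjusted p of 0.214 in limma.

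The steps after it did not share that size. MVK, the kinase that puts the initial phosphate on mevalonate, had levels of 4.12, 4.0 and 4.0 in fat-1 animals and 4.12, 4.68 and 3.96 in wild type animals, the lowest difference of the 7 at -0.22 ± 0.24. Its groups overlapped, and wild type replicate 2 was the high animal. At its other probe every fat-1 animal lay below every wild type animal, with a difference of -0.38 ± 0.24. The kinase PMVK (-0.03), the decarboxylase MVD (-0.21) and the thiolase ACAT2 (-0.04), which makes acetoacetyl-CoA, also had differences below 0 with overlapping groups, as did their other probes (-0.27 to -0.19). IDI1, which isomerises the isoprene unit, stood at 1.35, 0.90 and 1.1 in fat-1 animals and 0.73, 0.67 and 0.74 in wild type animals. Every fat-1 animal was above every wild type animal, with a difference of 0.40 ± 0.21 (unadjusted p = 0.0908 in limma). Its other probe gave 0.46 ± 0.24, with overlapping groups. FDPS, which makes farnesyl diphosphate, had differences of 0.33 ± 0.26 and 0.40 ± 0.34 at its probes, with wild type replicate 2 the highest of the 6 animals at both. With quantile scaling its brightest probe gave 0.50 ± 0.19 (unadjusted p = 0.0373 in limma).

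Of the 11 genes of the sterol branch, 10 had a difference above 0 (90.9%, against 42.0% of all genes), and the median was 0.28. At an unadjusted p under 0.05, 3 of them stood higher and none lower, where 5.56% of all genes stood higher. Without those 3, the other 8 had 7 above 0 and a median of 0.20. The count of 10 depends on the probe, since EBP stood at 0.002 and the other probes of EBP, LSS and NSDHL lay below 0. Over the alternative fits with all animals, EBP reached -0.07 and NSDHL -0.13. Averaged over the 11 genes as deviations from each gene's mean over the 6 animals, the fat-1 animals stood at 0.21, 0.14 and 0.25 and the wild type animals at -0.20, -0.24 and -0.15. The groups did not overlap, also with the 3 genes left out, when fat-1 animals stood at 0.11, 0.08 and 0.19 and wild type animals at -0.15, -0.13 and -0.10. These 11 genes share arrays and are not independent replicates.

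MSMO1, an oxidase that takes part in the removal of methyl groups from the sterol ring, had the highest difference of all members. Its levels at probe 1 were 2.72, 2.69 and 2.69 in fat-1 animals, against 1.80, 1.28 and 2.09 in wild type animals. The fat-1 animals were almost identical and all above the wild type animals, which were spread over a wider range. The difference was 0.98 ± 0.25 (1.97-fold, unadjusted p = 0.00405, adjusted p = 0.214 in limma). The other probes printed above gave 0.98 ± 0.32, 0.96 ± 0.38 and 1.06 ± 0.32, each at an unadjusted p under 0.05. At probe 3 the groups overlapped, since fat-1 replicate 2 (-1.33) lay below wild type replicate 3 (-1.27).

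CYP51A1, the cytochrome that removes a methyl group from lanosterol, had levels of 1.83, 1.44 and 1.42 in fat-1 animals and 0.87, 0.57 and 1.03 in wild type animals. The groups were apart, with fat-1 replicate 1 highest. The difference was 0.74 ± 0.23 (1.67-fold, unadjusted p = 0.0111, adjusted p = 0.298 in limma), and 0.72 ± 0.23 at the other probe. FDFT1, the squalene synthase at the entry of the branch, had levels of 3.59, 3.59 and 3.80 in fat-1 animals and 3.1, 3.22 and 2.78 in wild type animals. These groups were also apart, with a difference of 0.62 ± 0.21 (1.54-fold, unadjusted p = 0.0186, adjusted p = 0.334 in limma). Its other probes gave 0.56 ± 0.22 and 0.38 ± 0.37, with overlapping groups at the latter. Leaving out fat-1 replicate 3 gave it an unadjusted p of 0.0658, and leaving out wild type replicate 3 gave 0.0523.

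**Figure D2:**
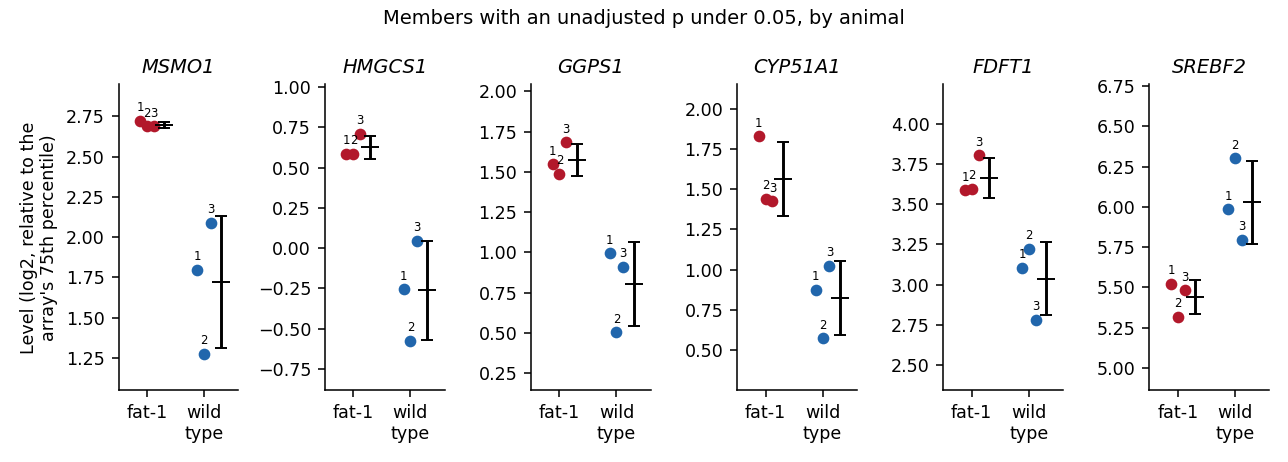
Level (log2, relative to the array's 75th percentile) of the 6 members with an unadjusted p under 0.05, 1 numbered point per animal, with the mean and SD of each group (n = 3). All fat-1 animals lie above all wild type animals in MSMO1, HMGCS1, GGPS1, CYP51A1 and FDFT1 and below them in SREBF2; each panel has its own scale.

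The remaining sterol genes had smaller or less even differences. SQLE, the epoxidase that acts on squalene, had levels of 4.03, 3.72 and 3.82 in fat-1 animals and 3.70, 3.69 and 3.35 in wild type animals, a difference of 0.28 ± 0.21. Its groups did not overlap, but fat-1 replicate 2 and wild type replicate 1 were nearly level. HSD17B7, a ketoreductase of sterol demethylation, had 0.44, 0.64 and 0.85 in fat-1 animals and 0.09, -0.75 and 0.59 in wild type animals, a difference of 0.67 ± 0.34, and 0.42 at its other probe. SC5D, a sterol desaturase, had 0.31, 0.26 and 0.13 in fat-1 animals and -0.14, -1.01 and 0.27 in wild type animals, a difference of 0.53 ± 0.32, and 0.86 at its other probe. In both genes the groups overlapped and wild type replicate 2 was the low animal. Without it the differences were 0.30 and 0.17. Without wild type replicate 3 they were 0.97 and 0.81, with unadjusted p of 0.0145 for HSD17B7 and 0.0290 for SC5D.

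A further 4 sterol genes had differences of -0.02 to 0.18, with overlapping groups. DHCR7, which makes the final reduction to cholesterol, had the lowest difference of the branch, with levels of 3.01, 3.02 and 2.83 in fat-1 animals and 2.90, 3.33 and 2.70 in wild type animals. The groups overlapped, with a difference of -0.02 ± 0.23 and a 95% interval of -0.55 to 0.51. The isomerase EBP had 0.002 ± 0.21 and the lanosterol synthase LSS 0.16 ± 0.21, with the opposite sign at their other probes (-0.14 for EBP and -0.03 for LSS). The sterol reductase TM7SF2, with a single probe, had 0.18 ± 0.27. Over the alternative fits with all animals TM7SF2 ranged from -0.05, with another background correction, to 0.46. With an animal left out it ranged from -0.003 to 0.43.

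NSDHL, the decarboxylating dehydrogenase that works beside HSD17B7, is a gene whose probes differed in sign. Its brighter probe, at chrX:22539873-22539932 on the plus strand, had levels of 0.21, 0.46 and 0.68 in fat-1 animals and 0.27, 0.48 and -0.08 in wild type animals, a difference of 0.22 ± 0.24. The other, at chrX:22534739-22534798 on the plus strand, had -0.55, -0.96 and -0.66 in fat-1 animals and -0.65, -0.69 and 0.62 in wild type animals, a difference of -0.48 ± 0.36. In wild type replicate 3 the brighter probe was the lowest of the 6 animals and the other probe the highest. The first 30 bases of each follow, since these are the stretches that disagreed.
NSDHL brighter probe: gcacatatagtgaatcagtgttctttattt
NSDHL other probe: acctcccttatgccacgaaacccattgact

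The prenyl branch was divided, with GGPS1 apart from the rest. Of its 8 genes, 4 had a difference above 0 and 4 below, and the median was -0.004. GGPS1, which makes the geranylgeranyl diphosphate that is attached to proteins, had levels of 1.55, 1.49 and 1.68 in fat-1 animals, against 0.99, 0.50 and 0.91 in wild type animals. The groups were well apart, and wild type replicate 2 was the lowest animal. The difference was 0.77 ± 0.22 (1.71-fold, unadjusted p = 0.00726, adjusted p = 0.260 in limma). The overlapping probe printed above gave 0.82 ± 0.22. A probe that shares no base with them gave 0.65 ± 0.37, with overlapping groups and an unadjusted p of 0.115.

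The other genes of the prenyl branch had differences of -0.31 to 0.24 at the brightest probe. DHDDS, a subunit of the enzyme that makes the dolichol chain, was the lowest, with levels of -1.70, -1.55 and -1.82 in fat-1 animals and -1.52, -1.04 and -1.57 in wild type animals. Only fat-1 replicate 2 lay inside the wild type range, and the difference was -0.31 ± 0.23. The long-chain synthase subunits PDSS1 and PDSS2 had 0.02 ± 0.23 and -0.03 ± 0.22, with 0.19 and 0.06 at their other probes. COQ2, which joins the chain to the ring of ubiquinone, had -0.09 ± 0.23.

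FNTA, the subunit shared by farnesyltransferase and geranylgeranyl transferase type I, had a difference of 0.06 ± 0.21, with 0.16 and -0.13 at its other probes. FNTB, the partner subunit of farnesyltransferase, had levels of -2.12, -2.20 and -2.02 in fat-1 animals and -1.87, -1.93 and -2.24 in wild type animals, a difference of -0.10 ± 0.21. The groups overlapped. An FNTB probe that overlaps it gave -0.11 and a separate one 0.26, and a further probe, not well above background in any animal, was not tested. PGGT1B, the partner subunit of geranylgeranyl transferase type I, had -0.41, -0.81 and -0.58 in fat-1 animals and -0.69, -1.36 and -0.48 in wild type animals, a difference of 0.24 ± 0.28. Those groups overlapped as well, and its other probes gave -0.06, 0.44 and 0.26.

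The regulators had differences on both sides of 0. Of 7 genes, 3 were above 0 and 4 below, and the median was -0.13, which is the value of the gene named STARD4. Without that gene, 3 were above 0 and 3 below. SREBF2 at probe 1 had levels of 5.52, 5.32 and 5.48 in fat-1 animals, against 5.98, 6.30 and 5.80 in wild type animals. All fat-1 animals lay below all wild type animals. The difference was -0.59 ± 0.22 (0.665-fold, unadjusted p = 0.0262, adjusted p = 0.356 in limma).

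The other SREBF2 probes did not show it. Probe 2 had levels of 4.02, 4.58 and 4.23 in fat-1 animals and 4.34, 4.64 and 3.73 in wild type animals, a difference of 0.04 ± 0.29, and probes 3 and 4 had 0.16 ± 0.31 and 0.08 ± 0.29. The groups overlapped at all of these. Probes 3 and 4 were far dimmer than probes 1 and 2, with means of -2.96 and -3.24 in fat-1 animals and -3.12 and -3.31 in wild type animals. With the probes averaged at equal weight the difference was -0.08. The unadjusted p at probe 1 was no longer under 0.05 without fat-1 replicate 2 (0.0872), fat-1 replicate 3 (0.0545), wild type replicate 1 (0.0672) or wild type replicate 2 (0.0531).

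**Figure D3:**
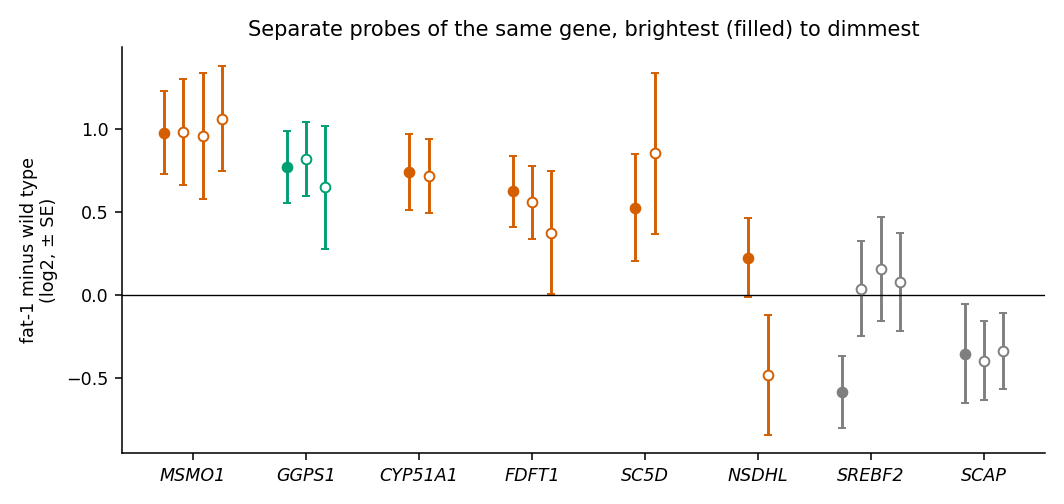
Difference in level (log2, fat-1 minus wild type, ± SE of the fit) at each tested probe of 8 genes, from the brightest (filled) on the left to the dimmest. The 4 MSMO1 probes lie between 0.96 and 1.06, while SREBF2 has -0.59 at its brightest probe and 0.04 to 0.16 at the other 3.

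SCAP had differences of -0.36 ± 0.30, -0.40 ± 0.24 and -0.34 ± 0.23 at its 3 probes, each with overlapping groups. MBTPS1 had levels of 2.82, 3.08 and 3.03 in fat-1 animals and 3.31, 3.41 and 3.12 in wild type animals. These groups did not overlap, with a difference of -0.30 ± 0.20. At the other MBTPS1 probe they did, with a difference of -0.37 ± 0.22. MBTPS2, the other protease, had 0.10 ± 0.19.

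Of the retention proteins, INSIG2 was the highest regulator, with levels of -0.55, -0.47 and -0.74 in fat-1 animals and -0.88, -1.19 and -0.60 in wild type animals, a difference of 0.31 ± 0.23, and 0.14 at its other probe. Wild type replicate 3 lay within the fat-1 range. INSIG1, itself a target of the SREBF2 factor in mammals, had 0.96, 1.02 and 1.29 in fat-1 animals and 1.05, 1.09 and 0.71 in wild type animals. Its groups overlapped, with a difference of 0.14 ± 0.22 and -0.18 at the other probe. The 4 probes named STARD4 on the array, after a sterol transfer protein, carry an accession that RefSeq lists as STARD5, so they may not measure STARD4. They had differences of -0.13 to -0.41, and without them the median of the regulators was -0.10.

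**Figure D4:**
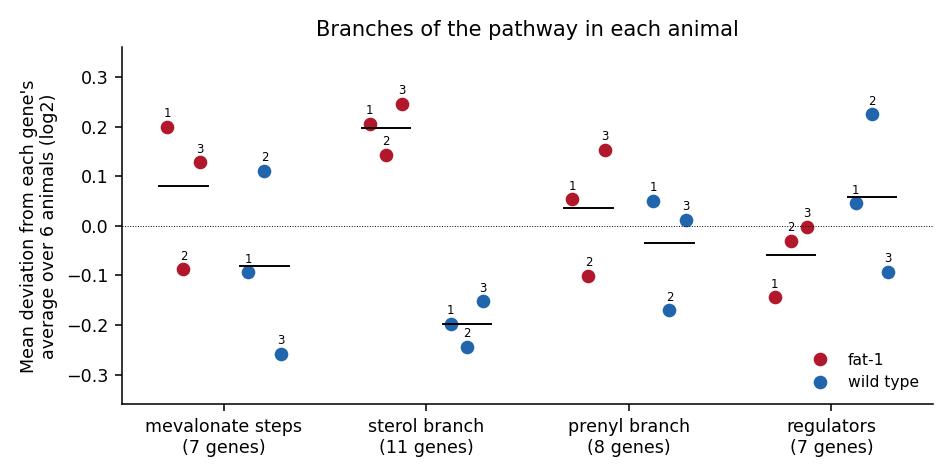
Mean deviation of each branch's genes from each gene's average over the 6 animals (log2), 1 numbered point per animal, with a bar at the mean of each group (n = 3). In the sterol branch the fat-1 animals lie at 0.14 to 0.25 and the wild type animals at -0.24 to -0.15; in the other branches the groups overlap.

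Other branch medians moved across 0 when an animal was left out. For the mevalonate steps the median was 0.30 without fat-1 replicate 2, and for the regulators it was 0.11 when wild type replicate 2 was dropped and -0.28 when replicate 3 was. Both of these are the values of the gene named STARD4 itself, and without that gene the median of the regulators was -0.18 to -0.02 over the 6 such fits. The sterol median stayed at 0.20 to 0.34 over the 6 such fits. Deviations of the mevalonate steps were 0.20, -0.09 and 0.13 in fat-1 animals and -0.09, 0.11 and -0.26 in wild type animals, so that fat-1 replicate 2 and wild type replicate 2 lay across from the rest of their groups. The difference between branches was not tested.

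Probes of the same gene mostly shared a sign. Of the 73 tested probes of these genes, 42 (57.5%) had a difference above 0, against 44.6% of all probes tested. At an unadjusted p under 0.05, 11 (15.1%) stood higher, against 6.15% of all probes, and 1 lower, against 6.68%. The 11 are probes of the 5 genes named above. With normexp background correction the shares of all probes were 2.76% higher and 7.94% lower, and 6 members stood higher and none lower. Of 40 other tested probes, from 26 members, 29 had the sign of the brightest and 11 the opposite sign, with a median gap of 0.15 and a maximum of 0.74 on the log2 scale. The 8 other probes of HMGCS1, FDFT1, CYP51A1, MSMO1 and GGPS1 together (HMGCS1 has none) all had differences above 0, from 0.38 to 1.06, 6 of them at an unadjusted p under 0.05. These genes were picked by their brightest probe in the same animals, so this count is not independent of that choice. A GGPS1 probe among the 6 shares 55 bases with the brightest. The SD over animals was smaller in fat-1 than in wild type blood in 25 of the 33 members (75.8%), and in 68.2% of all genes.

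Another 48 genes of the pathway were listed, of which 38 could be tested. Of these 38, 20 had a difference above 0, a larger share than the 42.0% of all genes, and the median was 0.01. None passed an adjusted p of 0.05 in limma. At an unadjusted p under 0.05 there was 1 higher and 1 lower of the 38. Each is a smaller share than among all genes, where 5.56% were higher and 6.41% lower. The lower one was PGRMC1, a membrane haem-binding protein, with 2.57, 2.32 and 2.44 in fat-1 animals and 2.93, 3.12 and 2.94 in wild type animals. Every fat-1 animal lay below every wild type animal, with a difference of -0.56 ± 0.20 (adjusted p = 0.351 in limma), and -0.58 and -0.54 at the other probes.

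Markers of blood cells also differed between the animals. The 5 markers of gamma-delta T cells were all lower at an unadjusted p under 0.05 (median difference -1.45), where 6.41% of all genes were. The mean deviation over the list was -1.68 to -0.11 in fat-1 animals and 0.58 to 0.92 in wild type animals. Only 3 of the 5 were well above background on all 6 arrays. SOX13 and TRGC6 were so on 2 of the fat-1 arrays, and the other TRGC6 probe gave 0.26. Of 6 monocyte markers 5 were above 0 (median 0.27), at -0.23 to 0.41 in fat-1 animals and -0.40 to 0.21 in wild type animals. Of 6 red cell and reticulocyte markers 4 were above 0 (median 0.94), with 0.01 to 0.66 in fat-1 animals and -1.07 to 1.20 in wild type animals, where wild type replicate 2 was the highest. The neutrophil markers had a median of 0.05 and the T cell markers of -0.28, with overlapping ranges. FCGR3A, listed here with the neutrophil markers, had 0.83 (unadjusted p = 0.00438, limma), with 0.29 and 0.27 at other probes. The rest of that list had differences of -0.84 to 0.29. CX3CR1, a monocyte marker, had 0.69 (unadjusted p = 0.0192, limma). Of 8 T cell markers only CD8A was above 0, at 0.73. Of 5 NK cell markers 3 were above 0 (median 0.15). KLRK1 had 0.90 and NCR1 -0.81 (unadjusted p of 0.0132 and 0.0288, limma). The B cell and plasma cell markers had medians of -0.28 and -0.03. All 4 platelet markers tested were above 0 (median 0.48), at -0.10 to 0.37 in fat-1 animals and -0.40 to 0.19 in wild type animals. Among them GP1BA was well above background on 3 fat-1 arrays but only 1 wild type array, so it met the filter through the group where it was higher. PPBP, a platelet chemokine, had an unadjusted p of 0.0446 (limma). SLC4A1, the anion exchanger of red cells, was not well above background in any fat-1 animal and stood at -4.31 ± 0.02 (SD, n = 3) in wild type animals. CXCR2, a receptor of neutrophils, was not well above background on any of the arrays. The part of these cells in the differences above was not tested.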

How the data were processed

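The submitters' processing notes name Agilent Feature Extraction 10.7.1.1. Its deposited scanner files hold spot intensity, background-subtracted and not scaled between arrays, per the file headers. Flags for spots well above background or outlying were used as deposited. The authors' value table, deposited as log2 values of equal distribution on every array (median 6.38 in each), served as an alternative; how it was made is not given in the sources.

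Levels are log2 intensity minus the array's 75th percentile. Left out were 48 probes with an outlier flag. A test was made for the 26811 probes well above background on 3 or more arrays, with limma 3.58.1 (lmFit, eBayes) in R 4.3.3, group as the only term, adjusted by Benjamini-Hochberg. The number of arrays limits the precision. Of the 74 member probes, 70 had the member's symbol. It came from the probe's accession in RefSeq's ARS-UCD2.0 table or, where that was missing, from the array's own gene name. The array's name also chose the members, so for those probes it is no separate check. SREBF2 probe 1 carries an Ensembl identifier. The fit was tested on simulated data with differences larger than those of any member and no slide effect. That test therefore does not cover differences of the size reported here.

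Values per animal are given for members with an unadjusted p under 0.05, the highest and lowest of each branch and genes whose probes differ in sign by at least 0.3, and for IDI1, SQLE, HSD17B7, SC5D and MBTPS1, chosen after their values were seen. Members and lists were chosen with earlier results of these data known. Alternatives were other scalings, background correction, dim-probe filters, probe averaging, an intensity trend, array weights, the replicate block and each animal left out. Promoter motifs were not examined. Exons and untranslated regions were not assigned. Replicates with the same number deviated together at r of 0.12, 0.19 and 0.01, so the numbers were not taken as pairs. Some other genes of the pathway are not reported here.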

Additional observations from a re-analysis of the deposited data

How the results depend on the processing

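No member had an adjusted p under 0.05 (limma) under any alternative except array weights, where 3 did (HMGCS1 0.0246, MSMO1 0.0255, CYP51A1 0.0464), while that fit raised the probes called from 46 to 1985 and those at an unadjusted p under 0.05 from 3442 to 8801 (2247 with averaged probes). Calls over all probes were 16 with quantile scaling and with the authors' value table, 125 with median scaling, 118 with normexp (35 higher and 83 lower in fat-1, against 21 and 25), 125 with an intensity trend, 14 with no filter, 7 with a filter of at least 1 array, and 8 to 55 with an animal left out (unadjusted 2029 to 6238). The members at an unadjusted p under 0.05 (limma) numbered 6. There were 7 with quantile scaling and with the authors' value table, 5 with median scaling, 10 with array weights and 4 to 7 with an animal left out. HMGCS1, CYP51A1, MSMO1 and GGPS1 were among them in all 6 fits without an animal and in the 11 other fits, FDFT1 in 4 and 10, and SREBF2 in 2 and 9. The sterol median, 0.28, was 0.42 with quantile scaling and with the value table, 0.38 with array weights and 0.20 to 0.34 with an animal left out; that of the regulators was 0.029 with array weights and -0.28 to 0.11 with an animal left out (-0.18 to -0.02 without the gene named STARD4, chosen after seeing the data), and that of the mevalonate steps -0.13 to 0.30. With the replicate block, 105 probes were called and no call of a member changed. The cause of these shifts was not tested. No block for the slide was possible, since each slide holds 1 group, and arrays of 3 animals a group limit every value.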
